A study of Mus musculus with 6 samples.

Results

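Grb10 and 9 other imprinted genes (Cdkn1c, Igf2r, H19, Igf2, Dlk1, Peg3, Plagl1, Mest and Ndn) were followed across 6 microarrays of granulocyte/macrophage progenitors, the bone marrow cells from which granulocytes and monocytes arise. The members were all probe sets whose platform annotation names 1 of these 10 genes, which gave 29 of the 45037 probe sets on the array, and at least 1 for each gene. A probe set is the group of short probes that together measure a transcript. Of the 29 probe sets, 17 lay above the 40th percentile of their array on at least 2 of the 6 arrays and were tested, against 29783 tested in all. Grb10 was selected on its intensity on these same arrays, which was lower in cells without IRF4 and IRF8 than in wild-type cells, so its values are given as a description and with no test. The question is whether other imprinted genes differed between the genotypes in the same direction.

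The cells were sorted from bone marrow of BL6 mice as negative for lineage markers, IL-7R and Sca1, positive for Kit and CD34, and high for the Fc receptors II and III. Each genotype had 2 arrays, each from a mouse per the labels. Wild type (WT) replicate 1 was a male of 12 weeks and replicate 2 a female of 19 weeks. The IRF8 knockout (KO) group had a female of 12 weeks as replicate 1 and a male of 22 weeks as replicate 2. The IRF4/8 double knockout (DKO) group had a male and a female, in that order, both aged 16 weeks. The sources used here do not describe the knockout alleles, and no group carries a deletion of IRF4 alone. With 2 mice per genotype, p-values measure the spread between these samples only, and the ages differed between and within genotypes.

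Imprinted genes are expressed mainly from the copy inherited from 1 parent, because DNA methylation placed in the egg or sperm marks the parental copies differently. Many of them set growth before birth, and several are more active in long-lived blood stem cells than in dividing progenitors. Grb10 is an adaptor protein that binds the activated insulin and IGF1 receptors and dampens their signal. Igf2 is a growth factor, Igf2r the receptor that removes it from the cell surface, and H19 a noncoding RNA from the same imprinted domain as Igf2. Cdkn1c is a cyclin-dependent kinase inhibitor, Plagl1 and Peg3 are zinc finger proteins, Ndn is a growth-restraining protein of the MAGE family, Dlk1 is a membrane protein related to the Notch ligands, and Mest belongs to a family of hydrolases.

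Promoters are shown for Grb10 and for Plagl1 and Mest, the members that lay above WT on all 4 knockout arrays, because CpG sites, a C followed by a G on the same strand, are where such methylation marks sit. Each sequence is 300 bases from RefSeq on build GRCm38.p6, with 250 bases before and 50 bases after the transcription start, 5′ to 3′ on the strand of the gene, and with each CpG in capitals.
Grb10, chr11:12037371-12037670, minus strand: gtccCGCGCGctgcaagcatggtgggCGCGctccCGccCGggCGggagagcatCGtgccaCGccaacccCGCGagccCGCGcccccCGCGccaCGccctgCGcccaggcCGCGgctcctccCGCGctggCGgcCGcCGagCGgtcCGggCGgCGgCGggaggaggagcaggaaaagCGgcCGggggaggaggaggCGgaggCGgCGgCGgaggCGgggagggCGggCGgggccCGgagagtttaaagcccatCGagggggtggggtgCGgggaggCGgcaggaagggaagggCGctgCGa
Grb10, chr11:12027922-12028221, minus strand: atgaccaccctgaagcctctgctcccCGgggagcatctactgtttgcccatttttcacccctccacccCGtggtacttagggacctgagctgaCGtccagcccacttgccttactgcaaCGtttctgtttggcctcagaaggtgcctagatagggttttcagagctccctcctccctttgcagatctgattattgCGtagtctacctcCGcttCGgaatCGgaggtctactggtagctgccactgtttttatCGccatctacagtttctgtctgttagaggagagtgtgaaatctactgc
Plagl1, chr10:13090582-13090881, plus strand: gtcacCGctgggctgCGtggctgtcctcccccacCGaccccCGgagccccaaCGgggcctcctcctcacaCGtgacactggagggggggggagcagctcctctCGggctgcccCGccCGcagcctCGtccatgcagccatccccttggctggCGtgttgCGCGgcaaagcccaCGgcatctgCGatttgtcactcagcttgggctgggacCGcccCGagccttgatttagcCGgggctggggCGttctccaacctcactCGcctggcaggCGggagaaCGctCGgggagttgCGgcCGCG
Mest, chr6:30737800-30738099, plus strand: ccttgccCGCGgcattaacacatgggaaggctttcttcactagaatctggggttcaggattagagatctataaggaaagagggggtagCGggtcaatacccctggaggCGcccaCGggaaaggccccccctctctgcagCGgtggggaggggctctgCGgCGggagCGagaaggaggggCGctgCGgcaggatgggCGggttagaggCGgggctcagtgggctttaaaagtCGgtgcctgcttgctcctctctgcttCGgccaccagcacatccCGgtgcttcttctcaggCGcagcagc
The first Grb10 promoter held 45 CpG sites, and 98.4% of the 32851 RefSeq mouse promoters of this length held as many or fewer. The other Grb10 promoter held 9, the Plagl1 promoter 26 and the printed Mest promoter 17, against a median of 7 over all promoters. Of the other 2 Mest promoters, 1 overlaps the printed one almost fully and the other, chr6:30733256-30733555, plus strand, held 8. Promoters were listed for 8 of the 10 genes, 14 in all, and no methylation was measured here. The letters AANNGAAA, the core that IRF proteins bind, were searched on both strands and occurred in 2 of the 14, the second Grb10 promoter printed above and the Igf2 promoter at chr7:142658755-142659054, minus strand, and in 23.9% of all promoters. AGATAA, bound by factors of the GATA family, occurred in 0 of the 14 and in 11.2% of all promoters. These are letter matches in short windows only, and other forms of the GATA site were not searched.

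Values are intensities on a linear scale that the authors computed from the differences between perfect-match and mismatch probes, and fold changes are on the log2(intensity + 10.5) scale, which understates differences of low genes. The median intensity of an array ranged from 34.1 to 45.3, and its 40th percentile from 19.4 to 25.9. Replicates correlated at 0.977 within WT, 0.938 within the IRF8 knockout and 0.967 within the double knockout, and arrays of different genotypes at 0.935 to 0.973 (Pearson's r of log2 values over probe sets, which are not independent). The 2 IRF8 knockout arrays were thus no more alike than arrays of different genotypes, and double knockout replicate 1 was closer to WT replicate 2 (0.973) than to its own replicate. Kit lay between 1680 and 2426 on the 6 arrays, while Cd34 was 1747 and 1401 in WT, 440.3 and 669 in the IRF8 knockout, and 590.3 and 509 in the double knockout. Fcgr3 was 1090 and 1259 in WT against 2516 to 6315 in the knockout arrays, and Il7r stayed between 4.31 and 27.1. Irf8 (1416714_at) lay between 2588 and 4778 on all arrays, the knockouts included. A second Irf8 probe set, 1448452_at, read 507 and 704 in WT, 1333 and 1131 in the IRF8 knockout, and 934 and 1899.8 in the double knockout, above WT on all 4 knockout arrays. Irf4 (1421173_at) was 32.1 and 23.5 in WT, 13.8 and 7.66 in the IRF8 knockout, and 66.0 and 54.6 in the double knockout, and its other probe set, 1421174_at, read between 11.8 and 33.1 with overlapping genotypes. Neither gene was thus lower in both arrays of every genotype that lacks it. No source used here says whether the Irf8 and Irf4 probe sets fall inside the deleted stretch of each gene, so they do not check the genotype labels. With either WT array left out, no probe set passed the test in any comparison against WT.

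Grb10 had its highest values in WT, lower values in the IRF8 knockout and values near background in the double knockout. The probe set with the highest mean, 1425458_a_at, read 805 and 1062 in WT, 224 and 73.7 in the IRF8 knockout, and 22.1 and 12.7 in the double knockout. The 3 genotypes did not overlap, and both double knockout arrays lay near the 40th percentile of their array or below it. The IRF8 knockout was 6.66-fold lower than WT (log2 fold change −2.74, SE 0.55, 2 arrays per genotype), and the double knockout 34.0-fold lower (−5.09, SE 0.55). Between the knockouts the log2 difference was −2.35 (SE 0.55). Within males the difference from WT was −3.28 in the IRF8 knockout and −4.64 in the double knockout, and within females −2.19 and −5.53, with 1 array per sex and genotype. Removing any single array left the IRF8 knockout difference between −3.47 and −2.00 and the double knockout difference between −5.33 and −4.84.

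The other 2 Grb10 probe sets were dimmer and did not share one pattern. Probe set 1425457_a_at read 41.2 and 86.5 in WT, 7.12 and 11.8 in the IRF8 knockout, and 8.39 and 5.0 in the double knockout. All 4 knockout arrays lay below both WT arrays, with log2 differences of −1.84 and −2.05 (SE 0.42), but the filter kept this probe set only through its WT values. Its difference between the knockouts was −0.21. Probe set 1430164_a_at read 14.8 and 38.1 in WT, 74.6 and 3.82 in the IRF8 knockout, and 48.5 and 6.97 in the double knockout. Here replicate 1 was high and replicate 2 low in both knockout genotypes, and the differences from WT were −0.01 and −0.13 (SE 0.85). Averaged over the 3 probe sets, the log2 difference of Grb10 was −1.53 in the IRF8 knockout and −2.42 in the double knockout.

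**Figure D1:**
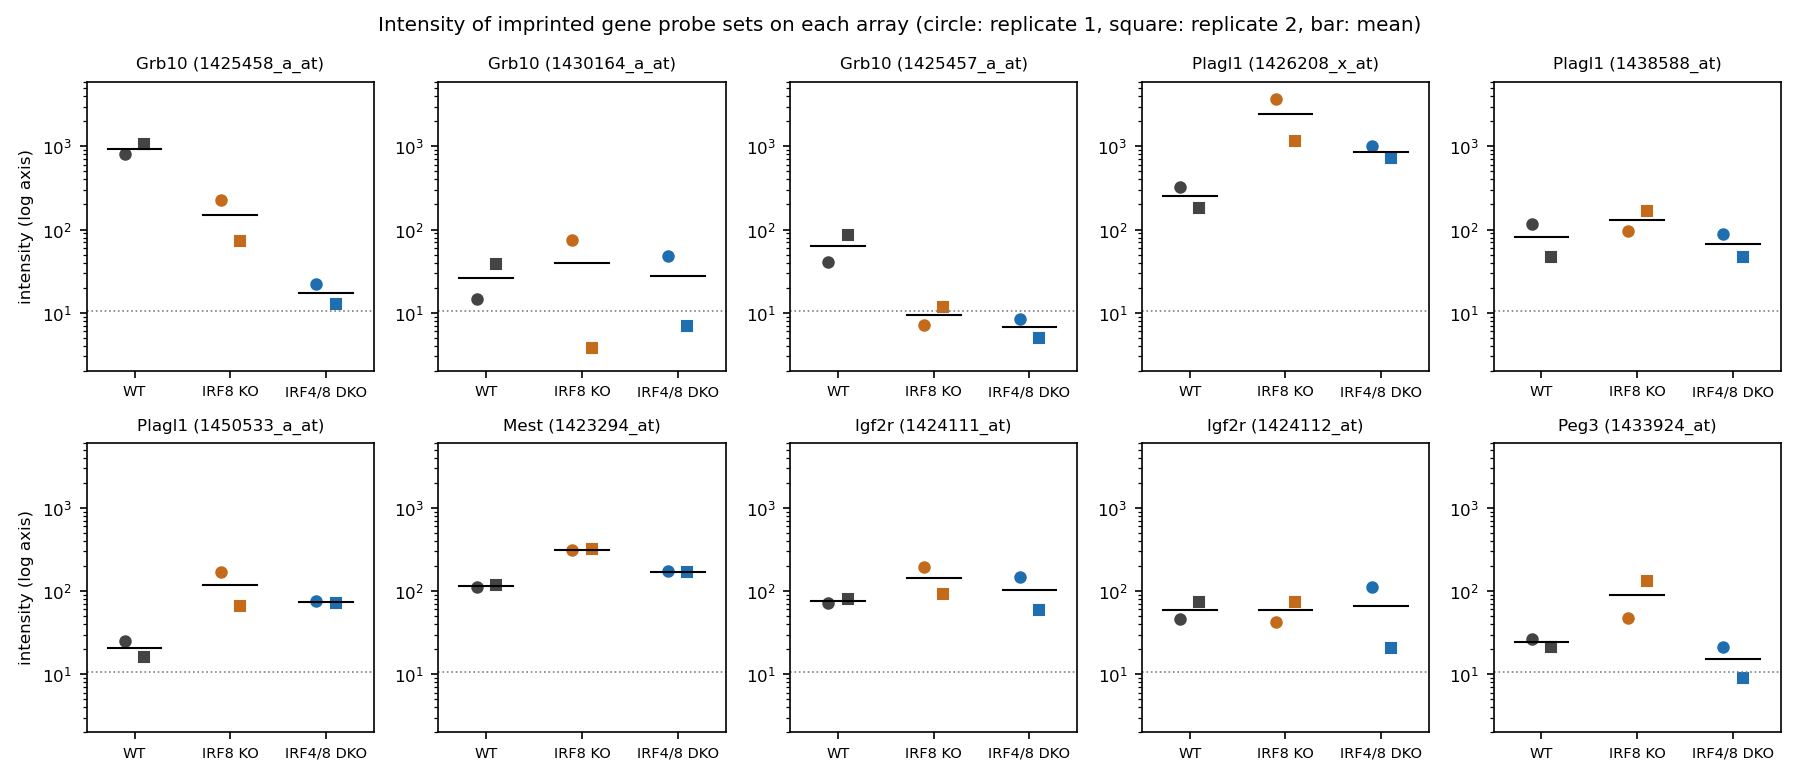
Intensity on a log axis of all kept probe sets of Grb10, Plagl1, Mest and Peg3 and of the 2 that carry Igf2r as their 1 symbol, by genotype, with replicate 1 as a circle, replicate 2 as a square and the genotype mean as a bar; the dotted line is the pseudocount of 10.5. Grb10 (1425458_a_at) steps down from 805 and 1062 in WT to 22.1 and 12.7 in the double knockout, while Plagl1 (1426208_x_at) and Mest are above WT on all 4 knockout arrays.

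Among the other 9 genes none passed the test in any comparison, by limma with Benjamini-Hochberg adjustment over all 29783 probe sets. They had 14 tested probe sets, covering 8 genes, since Cdkn1c was not kept by the filter. In the IRF8 knockout against WT 0 of the 14 were called, against 0.0302% of all tested probe sets, and 4 had an unadjusted p under 0.05, as did 13.5% of all. In the double knockout against WT 0 of 14 were called, against 0.299% of all, and 2 had an unadjusted p under 0.05, as did 9.05% of all. Between the knockouts the count was 0 of 14, against 0.0% of all, with 1 at an unadjusted p under 0.05 (8.52% of all). With both knockout genotypes set together against WT it was 0 of 14, against 0.601% of all, with 3 at an unadjusted p under 0.05 (11.6% of all). Each comparison against WT used the same 2 WT arrays, so they are not independent.

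The direction of these 14 probe sets was mixed, and their median in the IRF8 knockout lay above WT, where Grb10 lay below. In the IRF8 knockout both arrays lay above both WT arrays for 6 of the 14 and below for 0, where all tested probe sets had 19.8% above and 25.9% below. In the double knockout 3 lay above and 2 below, against 18.3% and 25.3% of all tested probe sets. Between the knockouts, 9 of the 14 were lower on both double knockout arrays than on both IRF8 knockout arrays and 0 were higher, against 17.3% and 19.3% of all tested probe sets. All 4 knockout arrays lay above both WT arrays for 3 of the 14 and below for 0, against 8.51% and 12.5%. Probe sets of 1 gene measure the same transcripts and are not separate counts. The median log2 difference of the 14 was 0.43 in the IRF8 knockout and −0.14 in the double knockout. Of the 14, 2 passed the filter only through knockout arrays, where they are high: the probe set of H19 and Mir675, and Plagl1 1450533_a_at. Peg3 1433924_at and Dlk1 1449939_s_at each had 1 WT, 2 IRF8 knockout and 0 double knockout arrays above the cut. They would not have been kept without the IRF8 knockout arrays, where their means are highest. The part of all these probe sets in these counts and medians supports nothing.

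**Figure D2:**
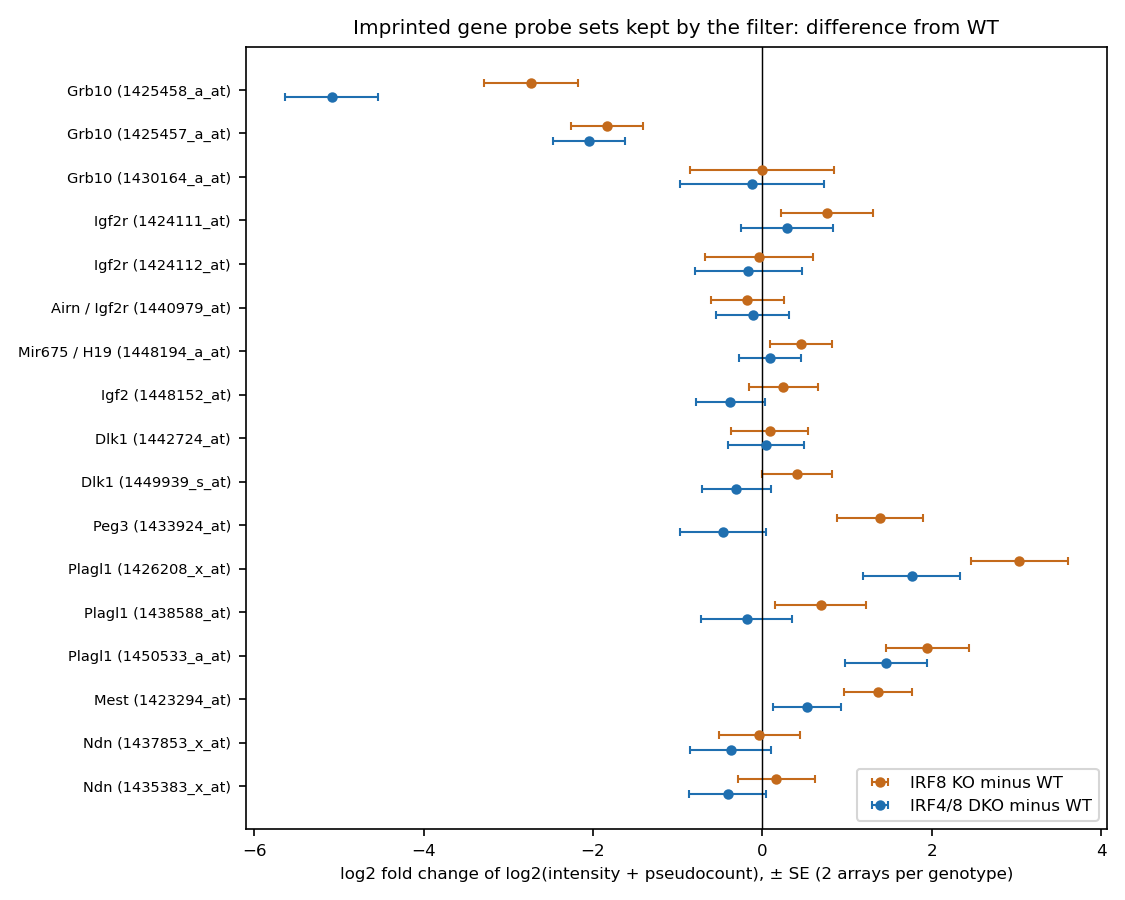
Log2 fold change against WT, with SE bars over 2 arrays per genotype, of the 17 kept probe sets of the imprinted genes, for the IRF8 knockout and the double knockout. Grb10 (1425458_a_at) lies at −2.74 and −5.09, Plagl1 (1426208_x_at) at 3.03 and 1.76, and Mest at 1.37 and 0.53.

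Igf2, the ligand of the pathway that Grb10 dampens, had no difference between genotypes that passed the test. Its kept probe set, 1448152_at, read 66.3 and 39.9 in WT, 67.2 and 59.6 in the IRF8 knockout, and 35.6 and 39.1 in the double knockout. The double knockout arrays lay just below both WT arrays, with a log2 difference of −0.38 (SE 0.40, limma adjusted p = 0.854), and the IRF8 knockout difference was 0.25 (limma adjusted p = 0.835). The other Igf2 probe set, 1415931_at, was not kept and read between 9.80 and 45.6. The H19 domain was measured by 1 probe set that the annotation assigns to H19 and to Mir675, the microRNA gene inside it, so it cannot be given to H19 alone. It read 19.8 and 11.8 in WT, 23.8 and 26.6 in the IRF8 knockout, and 17.4 and 16.9 in the double knockout, all in the low part of the arrays' range. It passed the filter only through the IRF8 knockout arrays, and its log2 differences from WT were 0.46 (SE 0.37, limma adjusted p = 0.629) and 0.09 (limma adjusted p = 0.966).

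Igf2r, the clearance receptor for Igf2, had 2 probe sets of its own and 1 shared by annotation with Airn, the noncoding RNA transcribed across it. Probe set 1424111_at read 71.3 and 79.1 in WT, 195.5 and 91.6 in the IRF8 knockout, and 147 and 58.9 in the double knockout. Both IRF8 knockout arrays were above WT, at a log2 difference of 0.76 (SE 0.54, limma adjusted p = 0.582), while the double knockout arrays lay on either side of WT (0.29, limma adjusted p = 0.926). In probe set 1424112_at the double knockout arrays read 110.5 and 20.7 against 46.4 and 73.1 in WT, and the IRF8 knockout arrays read 42.6 and 74.2. Its differences from WT were −0.04 and −0.17 (SE 0.63, limma adjusted p = 0.986 and 0.965), with the spread between the double knockout arrays larger than any difference between genotypes. The probe set shared by Airn and Igf2r read 33.8 to 64.8 on the 6 arrays with overlapping genotypes (log2 differences −0.18 and −0.11, limma adjusted p = 0.891 and 0.965).

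Plagl1, a zinc finger protein that restrains the cell cycle and acts on other imprinted genes, lay above WT in both knockouts, on the opposite side from Grb10. Probe set 1426208_x_at read 324 and 183 in WT, 3727 and 1148 in the IRF8 knockout, and 994 and 730.2 in the double knockout. All 4 knockout arrays were above both WT arrays, and the 2 IRF8 knockout arrays also lay above both double knockout arrays. The IRF8 knockout was 8.18-fold higher than WT (log2 3.03, SE 0.57, limma adjusted p = 0.0988) and the double knockout 3.39-fold higher (1.76, SE 0.57, limma adjusted p = 0.359), so neither passed the threshold of 0.05. Both knockout genotypes together were higher by 2.40 (SE 0.49, limma adjusted p = 0.0832). With age as a covariate the IRF8 knockout difference passed the threshold (3.26, limma adjusted p = 0.0218). Both knockouts together passed in that setting too (2.55, limma adjusted p = 0.0119). It called 136 and 355 probe sets for these comparisons, against 9 and 179 in the main fit. Both differences also passed with the replicate number as a block, as given in the last paragraph, and neither passed in most alternatives. Without IRF8 knockout replicate 1 the differences were 2.19 and 1.98, and without replicate 2 they were 3.88 and 2.82. Those fits leave 1 IRF8 knockout array, so only the differences are given. Between the sexes the IRF8 knockout difference was 1.79 in males and 4.27 in females, and the double knockout difference 1.59 and 1.94.

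A second Plagl1 probe set, 1450533_a_at, had the same order, and the third did not. It read 24.9 and 15.9 in WT, 169.9 and 66.3 in the IRF8 knockout, and 75.2 and 71.7 in the double knockout, 3.85-fold and 2.74-fold above WT (log2 1.95 and 1.46, SE 0.49, limma adjusted p = 0.159 and 0.381). All 4 knockout arrays again lay above WT, but the filter kept this probe set only through its knockout values, so it is no independent support for the first. Without IRF8 knockout replicate 2 its difference from WT was 2.56 for the IRF8 knockout and 2.01 for both knockouts together. With age as a covariate both knockouts together passed the threshold (1.80, limma adjusted p = 0.0453). Probe set 1438588_at read 116 and 47.1 in WT, 95.6 and 167 in the IRF8 knockout, and 87.5 and 47.0 in the double knockout. Its genotypes overlapped, and its log2 differences were 0.69 and −0.18 (SE 0.54, limma adjusted p = 0.62 and 0.955). The probe sets of Plagl1 therefore disagreed in size, and for the double knockout in sign.

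Mest, which is expressed from the paternal copy, had replicates that lay close together. It read 112 and 118.5 in WT, 309 and 318 in the IRF8 knockout, and 173 and 168 in the double knockout (means 115 ± 4.91, 313 ± 6.29 and 171 ± 3.08, SD, n = 2 each). No genotypes overlapped, and the order was WT, double knockout, IRF8 knockout. The IRF8 knockout was 2.58-fold higher than WT (log2 1.37, SE 0.40, limma adjusted p = 0.208) and the double knockout 1.44-fold higher (0.53, limma adjusted p = 0.787), and the knockouts differed by −0.84 (limma adjusted p = 0.605). These SEs are larger than the spread of Mest itself, because limma's moderation draws each probe set's variance towards that of others of like level. The difference kept its sign in every alternative of every comparison.

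Peg3, a paternally expressed zinc finger protein, had 1 kept probe set of 5. The filter would not have kept it without the IRF8 knockout arrays, where it is high, so its place above the other genotypes there supports nothing. Probe set 1433924_at read 26.6 and 21.5 in WT, 47.3 and 131 in the IRF8 knockout, and 21.5 and 8.93 in the double knockout. Its IRF8 knockout arrays were above all other arrays, at a log2 difference from WT of 1.39 (SE 0.51, limma adjusted p = 0.293), and the log2 difference of the double knockout from the IRF8 knockout was −1.86 (limma adjusted p = 0.537). Without IRF8 knockout replicate 1, which leaves 1 array in that genotype, the IRF8 knockout difference was 2.03 and that between the knockouts −2.50. The other 4 Peg3 probe sets read between 1.01 and 29.3 and were not kept.

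Dlk1, Ndn and Cdkn1c read low on these arrays. The Dlk1 probe set 1442724_at read 57.0 and 24.0 in WT, 34.8 and 47.2 in the IRF8 knockout, and 45.9 and 33.3 in the double knockout, and 1449939_s_at read 12.95 to 40.8. The Dlk1 genotypes overlapped in the first of these, and its log2 differences from WT were 0.08 and 0.04 (SE 0.45, limma adjusted p = 0.955 and 0.987). Those of 1449939_s_at were 0.41 and −0.31 (SE 0.41, limma adjusted p = 0.709 and 0.888), and the filter would not have kept it without the IRF8 knockout arrays. Ndn, known for its part in keeping blood stem cells out of cycle, was kept in 2 of 8 probe sets. In 1437853_x_at it read 79.2 and 29.1 in WT, 44.6 and 50.6 in the IRF8 knockout, and 42.5 and 29.2 in the double knockout, so the WT arrays spanned the whole range (−0.04 and −0.38, SE 0.48, limma adjusted p = 0.983 and 0.883). Its other kept probe set, 1435383_x_at, gave 0.16 and −0.41 (limma adjusted p = 0.911 and 0.864), and the 6 not kept read between 1.38 and 39.3. Cdkn1c, a cell cycle inhibitor of quiescent stem cells, had 1 probe set, which read 5.96 and 2.73 in WT, 2.97 and 5.46 in the IRF8 knockout, and 4.71 and 20.1 in the double knockout. The value of double knockout replicate 2 lay just above the 40th percentile of its array (19.4), and the others lay below the 25th percentile of theirs. The filter did not keep the probe set, so a difference in Cdkn1c was not tested here.

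A wider list of 58 imprinted genes, without the 10 above, was set beside them, 50 with a probe set of their own and 39 tested at 1 probe set per gene. In the IRF8 knockout against WT 0 of 39 passed limma's threshold, against 0.0452% of all 13267 genes tested, and 7 had an unadjusted p under 0.05, as did 12.0% of all genes. In the double knockout against WT 0 of 39 passed, against 0.407% of all genes, and 3 had an unadjusted p under 0.05, as did 8.0% of all genes. The counts were also 0 of 39 between the knockouts (0.0% of all genes, 5 at an unadjusted p under 0.05 against 7.79% of all genes) and for both knockouts together (0.746% of all genes, 7 at an unadjusted p under 0.05 against 10.2% of all genes). The median log2 difference of these genes from WT was 0.06 in the IRF8 knockout, with 22 above and 17 below 0, and −0.13 in the double knockout, with 18 above and 21 below. Of the 39, 4 (Usp29, Peg10, Tfpi2 and Ascl2) passed the filter only through knockout arrays, so their part in these counts and medians supports nothing. Nor does that of Rasgrf1, which needed its IRF8 knockout arrays to be kept, or of Nnat, which needed its WT arrays. All genes tested had medians of 0.04 and 0.03. For the 8 members with a single-symbol kept probe set, Grb10 included, the medians were 0.50 and −0.17.

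The other imprinted genes with the lowest adjusted p lay on both sides of WT. Ascl2, a transcription factor best known from placenta and intestinal stem cells, read 8.36 and 5.79 in WT, 31.5 and 99.4 in the IRF8 knockout, and 42.6 and 53.0 in the double knockout. It was above WT on all 4 knockout arrays, which are also the only arrays through which it passed the filter (log2 1.96 and 1.73, SE 0.50, limma adjusted p = 0.163 and 0.281). Without IRF8 knockout replicate 1 the IRF8 knockout difference of Ascl2 was 2.65. Both knockouts together differed from WT by 2.19 without that array and by 1.49 without IRF8 knockout replicate 2. Fitting only WT and the double knockout gave Ascl2 a limma adjusted p of 0.0389. That setting called 476 probe sets, against 89 in the main fit. Ppp1r9a, a neuronal actin-binding protein, read 176 and 101 in WT, 672 and 439.5 in the IRF8 knockout, and 189 and 192 in the double knockout. Its IRF8 knockout difference was 1.94 (SE 0.46, limma adjusted p = 0.139). Over the alternatives other than leaving out an array this difference ran from 0.70 to 2.08. These include the mean over all probe sets of the gene.

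On the lower side were Kcnq1ot1, Nnat and Phlda2. Kcnq1ot1, the noncoding RNA of the Cdkn1c domain, read 780.3 and 464 in WT, 333 and 451 in the IRF8 knockout, and 277 and 162 in the double knockout (log2 −1.46 against WT, SE 0.47, limma adjusted p = 0.358). Nnat read 47.5 and 41.2 in WT and 10.7 and 11.8 in the double knockout (−1.34, limma adjusted p = 0.38). The filter would not have kept Nnat without its WT arrays, where it is high. Phlda2, which restrains placental growth, read 65.3 and 38.6 in WT, 20.1 and 14.3 in the IRF8 knockout, and 105.7 and 97.1 in the double knockout. It was thus below WT in one knockout and above it in the other, with a difference between the knockouts of 2.02 (SE 0.41, limma adjusted p = 0.482). Peg10, kept by the filter only through its IRF8 knockout values, lay lower in the double knockout than in the IRF8 knockout (−1.45, limma adjusted p = 0.537).

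**Figure D3:**
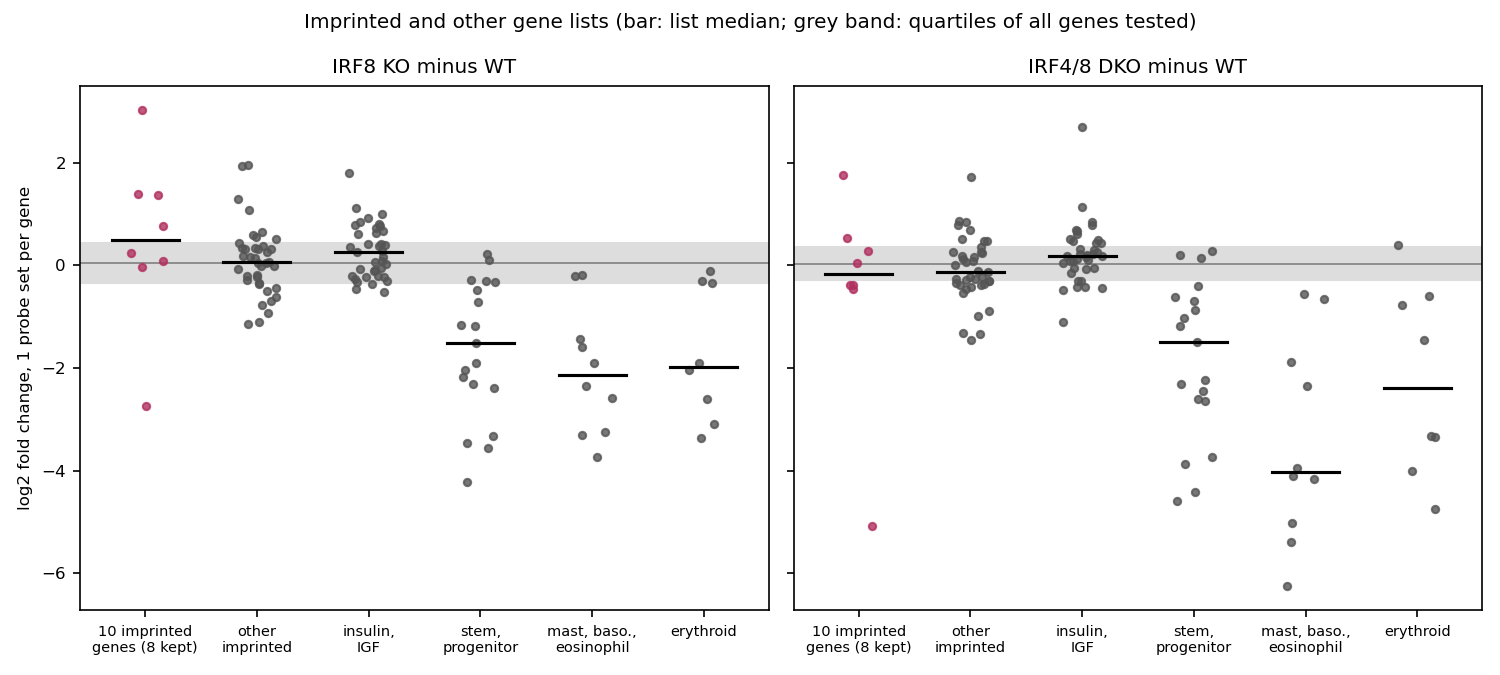
Log2 fold change against WT of each tested gene of 6 lists, at 1 probe set per gene, with the list median as a black bar and the quartiles of all genes tested as a grey band; the left panel is the IRF8 knockout and the right panel the double knockout. The other imprinted genes centre at 0.06 and −0.13, within the band, while the stem and progenitor list centres at −1.51 and −1.50.

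Marker lists of several blood lineages were set beside Grb10, and those of stem cells and of the mast cell lineage had medians below WT in both knockouts, while that of monocytes had medians above WT. Of 19 tested stem and progenitor genes, 17 lay below WT in the IRF8 knockout and 16 in the double knockout, with medians of −1.51 and −1.50. Limma called 1 of the 19 lower in the IRF8 knockout, 2 in the double knockout and 4 with both knockouts together. Of all genes it called 0.0452%, 0.407% and 0.746% in either direction. The genes so called, here and in the next 2 paragraphs, are named after their values were seen. Tek, the angiopoietin receptor of stem cells, read 249.7 and 152 in WT and 4.12 to 8.10 in the 4 knockout arrays. Of the 19, 3 (Tek, Mecom and Slamf1) passed the filter only through WT, where they are high, so their calls and their part in the counts and medians support nothing. Thy1 had 1 knockout array above the cut but needed its WT arrays to be kept, so its part supports nothing either. Gata2, a stem and mast cell transcription factor, read 1533 and 615 in WT, 117 and 299.7 in the IRF8 knockout, and 32.3 and 28.1 in the double knockout, where it fell by 4.60 on the log2 scale (limma adjusted p = 0.0285). The other 2 genes called with both knockouts together were Mecom, at 129 and 77.4 in WT and 8.34 to 11.5 in the knockouts, and Angpt1, which fell by 4.31 on the log2 scale (limma adjusted p = 0.0381). The summed intensity of the list was 23925 and 17623 in WT, 13313 and 12037 in the IRF8 knockout, and 12443 and 10334 in the double knockout.

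Of 10 tested mast cell, basophil and eosinophil genes, all 10 were below WT in both knockouts on all arrays, with medians of −2.13 and −4.03. Fcer1a and Gzmb would not have been kept by the filter without their WT arrays, where they are high. Their part in the counts, medians and sums of this list supports nothing. Of all tested probe sets, 25.9% lay below WT on both IRF8 knockout arrays and 25.3% on both double knockout arrays. An unadjusted p under 0.05 was held by 12.0% and 8.0% of all genes. Cpa3, a mast cell protease, read 1526 and 537 in WT, 68.9 and 49.5 in the IRF8 knockout, and 11.9 and 10.9 in the double knockout. Limma called 0 of the 10 in the IRF8 knockout, with 7 at an unadjusted p under 0.05, and 3 lower in the double knockout (Cpa3, Ms4a2 and Prg2, −5.39, −4.16 and −6.25, limma adjusted p = 0.02, 0.0447 and 0.0285). The summed intensity of this list was 14030 and 9474 in WT, 5771 and 3125 in the IRF8 knockout, and 1671 and 1851 in the double knockout, which puts the genotypes in the order of Grb10. The 8 erythroid genes had medians of −1.97 and −2.39, and list sums of 6958 to 9111 in WT and 4067 to 6202 in the knockouts. Both arrays lay below WT for 3 of the 8 in the IRF8 knockout and 7 in the double knockout, against 25.9% and 25.3% of all tested probe sets. Limma called 0 in each, with 4 and 5 at an unadjusted p under 0.05, against 12.0% and 8.0% of all genes. With both knockouts together Car2 fell by 4.05 on the log2 scale (limma adjusted p = 0.0381), and Gata1 was called too but passed the filter only through WT. Ermap also needed its WT arrays to be kept, and the part of Gata1 and Ermap in the erythroid counts, medians and sums supports nothing. Of 5 megakaryocyte genes, Pf4 and Cavin2 fell in the double knockout (−5.88 and −5.88, limma adjusted p = 0.0261 and 0.0443), and the list sum was 4759 and 1161 in WT, 1684 and 582 in the IRF8 knockout, and 83.8 and 115 in the double knockout. In the IRF8 knockout 0 of the 5 were called, with 2 at an unadjusted p under 0.05, against 12.0% of all genes. Its list sums overlapped those of WT. Itga2b and Vwf needed their WT arrays to be kept, so their part in the megakaryocyte counts and sums supports nothing. Of all genes, limma called 0.0452% in the IRF8 knockout, 0.407% in the double knockout and 0.746% with both knockouts together.

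Of 6 monocyte genes, 4 lay above and 2 below WT on both arrays of each knockout, with medians of 1.42 and 1.90. Of all tested probe sets, 19.8% lay above and 25.9% below in the IRF8 knockout, and 18.3% and 25.3% in the double knockout. Ccr2, a chemokine receptor, Mpeg1, a macrophage perforin, and Adgre1, the F4/80 antigen, rose in the double knockout (3.13, 2.07 and 3.11, limma adjusted p = 0.0285, 0.0372 and 0.0342). Ly86 was called lower in both knockouts but passed the filter only through WT. Limma called 0.0452% of all genes in the IRF8 knockout and 0.407% in the double knockout, in either direction. The monocyte list sum was 3605 and 3348 in WT, 7509 and 9367 in the IRF8 knockout, and 9234 and 15276 in the double knockout. Of 11 granulocyte genes, 9 lay above 0 in the IRF8 knockout and 11 in the double knockout (medians 0.80 and 0.50). Both arrays lay above WT for 2 of the 11 in each, near the 19.8% and 18.3% of all tested probe sets. The 1 granulocyte gene called, Mmp8 in the double knockout, passed the filter only through the knockout arrays. Of 4 lymphoid genes, limma called 0 in either knockout, with 2 and 1 at an unadjusted p under 0.05 (12.0% and 8.0% of all genes). The lymphoid list sum was 1083 and 1351 in WT and 2051 to 3255 in the knockouts. Stromal genes summed to 2181 and 457 in WT and 367 to 791 in the knockouts. In either knockout against WT 0 of the 8 were called and 0 had an unadjusted p under 0.05 (12.0% and 8.0% of all genes). In bulk samples, fewer cells of a type and less RNA per cell cannot be told apart, and the part of these cell type markers in the Grb10 values was not tested.

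Insulin and IGF pathway genes, among which Grb10 acts, showed no call by limma in any comparison. Of 46 listed genes 37 were tested, with medians of 0.26 in the IRF8 knockout (23 above and 14 below 0) and 0.19 in the double knockout (26 above and 11 below). In each, 3 of the 37 had an unadjusted p under 0.05, against 12.0% and 8.0% of all genes. Igfbp2 needed its IRF8 knockout arrays to be kept by the filter, so its part here supports nothing. Grb14, the close relative of Grb10 that also binds the insulin receptor, had 2 kept probe sets. The 1 with the larger mean log2 value stood on the opposite side of WT, and the values of the other are not given here. The probe set used read 20.7 and 31.7 in WT, 51.5 and 91.2 in the IRF8 knockout, and 163 and 307 in the double knockout. Its 3 genotypes did not overlap. In that probe set Grb14 was 6.46-fold higher in the double knockout than in WT (log2 2.69, SE 0.48, limma adjusted p = 0.0778) and by 1.13 higher in the IRF8 knockout (limma adjusted p = 0.36). The rise is that of 1 probe set, and its size depended on the setting. The alternatives included the mean over the 2 kept probe sets of Grb14, so their range reflects the other probe set too. Over those other than leaving out an array, the log2 difference of Grb14 ran from 1.44 to 2.94 in the double knockout. In the IRF8 knockout it ran from 0.36 to 1.29. Over the 6 arrays the log2 values of the probe set used correlated with those of Grb10 at r = −0.97, a description over 3 genotypes of 2 arrays each. The double knockout difference of Grb14 passed the threshold with only WT and the double knockout in the fit (0.0127 as limma adjusted p). It also passed with age as a covariate (2.66, limma adjusted p = 0.033). Both knockouts together differed from WT by 2.09 without IRF8 knockout replicate 1, which leaves 1 array in that genotype.

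Receptors and enzymes that act next to Grb10 did not pass the test either. Insr, the insulin receptor, read 697 and 614 in WT, 1391 and 1259 in the IRF8 knockout, and 1129 and 1154 in the double knockout, above WT on all 4 arrays (log2 1.01 and 0.79, limma adjusted p = 0.248 and 0.508). Igf1r read 2288 and 2503 in WT, 2015 and 1963 in the IRF8 knockout, and 1920.2 and 1631 in the double knockout. Nedd4, the ubiquitin ligase that forms a complex with Grb10, read 2409 and 2091 in WT, 1681 and 2206 in the IRF8 knockout, and 1031 and 1062 in the double knockout (−1.09 against WT, SE 0.30, limma adjusted p = 0.246). Pik3r2, a regulatory subunit of PI3 kinase, was higher by 1.80 in the IRF8 knockout (SE 0.51, limma adjusted p = 0.191), and by 2.30 without IRF8 knockout replicate 1. Grb2, the adaptor that links receptors to Ras, read 846 and 710.0 in the IRF8 knockout and 1325 and 2018 in the double knockout (1.07, limma adjusted p = 0.548).

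Genes that keep imprints in place had no call either. Of 14 listed, 11 were tested and limma called 0 in each comparison, with 1 at an unadjusted p under 0.05 in each comparison against WT and 0 between the knockouts. Of all genes, 12.0% had such a p in the IRF8 knockout, 8.0% in the double knockout, 10.2% in both together and 7.79% between the knockouts. Dnmt1, the maintenance DNA methyltransferase, read 5721 and 5542 in WT, 5726 and 4973 in the IRF8 knockout, and 6949 and 4679 in the double knockout, with overlapping genotypes. Dnmt3b, a methyltransferase that sets new methylation, read 1724 and 1353 in WT, 1046 and 691 in the IRF8 knockout, and 1024 and 540.2 in the double knockout. It lay below WT on all 4 knockout arrays (both knockouts together −0.93, limma adjusted p = 0.366). Trim28, which guards imprints with zinc finger proteins, differed by 0.84 in the IRF8 knockout (limma adjusted p = 0.361), and Uhrf1, the partner of Dnmt1, by 0.36 (limma adjusted p = 0.55).

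The genes whose values followed Grb10 most closely were not imprinted genes of the lists above. Likeness was Pearson's r of log2 values with Grb10 (1425458_a_at) over the 6 arrays, among 2160 genes with a log2 range of at least 2, and the 5 highest are named. Morc4 (r = 0.99), a chromatin-binding ATPase, read 108 and 129 in WT, 46.2 and 27.2 in the IRF8 knockout, and 15.2 and 15.2 in the double knockout. Krt18 (r = 0.98), a keratin, read 865 and 574 in WT, 253 and 100.4 in the IRF8 knockout, and 64.9 and 31.0 in the double knockout. Hbb-b2 (r = 0.98), a beta-globin gene whose near-identical copies may share its probes, read 234 and 157 in WT and 1.79 to 38.8 in the knockouts. St6galnac3 and Galnt6 (r = 0.98 and 0.97), which add sugars to glycans, had the same order, and Galnt6 read 888 and 836 in WT, 507 and 422 in the IRF8 knockout, and 190 and 151 in the double knockout. In all 5 genes both IRF8 knockout arrays lay below WT. Both double knockout arrays lay below the IRF8 knockout arrays except in St6galnac3. There double knockout replicate 1 (20.0) lay above IRF8 knockout replicate 2 (18.4). The measure itself favours this order. With 3 genotypes of 2 arrays each, genes that step down in this order all correlate. The r of the imprinted members with Grb10 ran from −0.48 for Plagl1 to 0.44 for Igf2, with Mest at −0.41, Dlk1 at −0.15, Igf2r at −0.08, Peg3 at 0.10 and Ndn at 0.32.

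**Figure D4:**
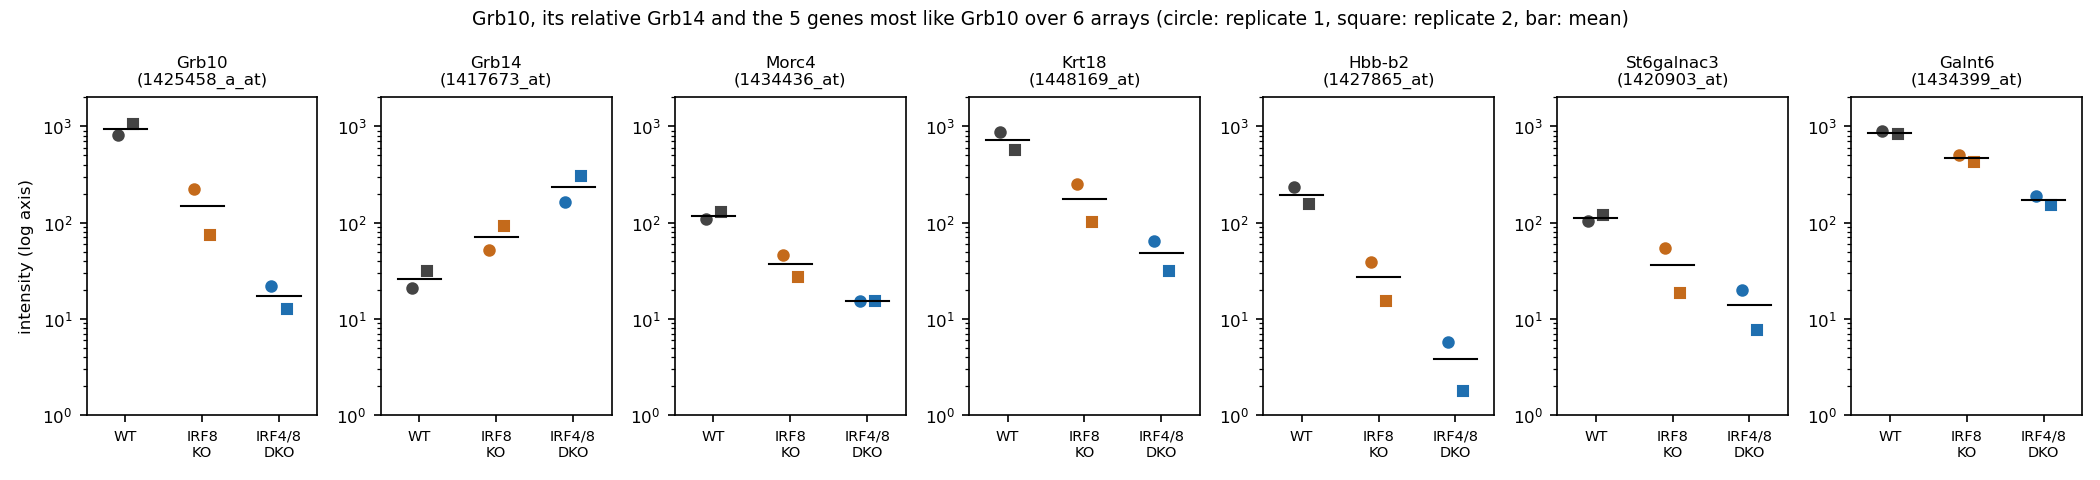
Intensity on a log axis, by genotype, of Grb10, of Grb14 and of the 5 genes with the highest correlation with Grb10, with replicate 1 as a circle, replicate 2 as a square and the mean as a bar. Grb14, at 1 of its 2 kept probe sets, steps up from 20.7 and 31.7 in WT to 163 and 307 in the double knockout. The other 6 genes step down.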

How the data were processed

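The deposited intensities are on a linear scale; the authors normalized the hybridizations and used the perfect-match/mismatch difference model of dChip 1.3, per the labels and design text of the series. The sources used here do not name the normalization method or the baseline array. Arrays have no read depth, and the precision is set by their number. Here the intensities were turned into log2(value + 10.5), with the 25th percentile of all values as pseudocount. Probe sets above the 40th percentile of their array on at least 2 of 6 arrays were kept (29783 of 45037), and all 3 genotypes were fitted together in limma 3.58.1 (R 4.3.3; empirical Bayes with a trend, without covariates). The p-values were adjusted by Benjamini-Hochberg across the 29783 probe sets, and "called" means an adjusted p under 0.05. The fit had 3 residual and 5.84 prior degrees of freedom. Errors are limma's standard errors.

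Gene symbols came from GEO's platform annotation: 34945 probe sets had 1 symbol, 932 several and 9160 none. For counts of genes, the kept probe set with the largest mean log2 value stood for its gene. The members and lists were chosen with earlier results of these data known. Named genes are all members, any gene of the imprinted, imprint maintenance and insulin lists past the threshold, genes among the 3 with the lowest adjusted p per list and comparison, and the 5 most like Grb10. Alternatives were other pseudocounts, filters, scalings and variance models, sex, age or the replicate number in the fit, and leaving out each array. The fit was tested on simulated data. Promoter sequences and symbols are from RefSeq, build GRCm38.p6.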

Additional observations from a re-analysis of the deposited data

Results flagged for a closer look

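In 2 member probe sets the double knockout lay above WT in the male mice and below it in the female mice, with at least 1 log2 unit on each side. For Grb10 probe set 1430164_a_at the difference of the double knockout from WT was 1.22 in males and −1.48 in females. For Igf2r probe set 1424112_at it was 1.09 in males and −1.42 in females. There was 1 array per sex and genotype, and the difference between the sexes was not tested.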

How the results depend on the processing

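Precision is limited by 2 arrays per genotype. Grb10 (1425458_a_at) stayed below WT in both knockouts in every alternative, with a double knockout difference of −4.09 with the median of all values as pseudocount and −2.42 as the mean over the 3 probe sets of the gene. Of 56 results of the other members' probe sets, 29 kept their sign in every alternative; 69 of 986 alternative values had the other sign, and 13 values, from 6 results, passed the threshold. Of 68 results of other named genes, 49 kept their sign; 36 of 1263 values had the other sign, and 14, from 6 results, passed.

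The IRF8 knockout against WT had 9 called probe sets. It had 21 and 5 with the lower and higher pseudocount, 5 with no filter, 17 with a filter at the 60th percentile, 30 with quantile normalization, 5 with no variance trend, 17 with a robust variance, 2 with only the genotypes compared, 2 with sex as a block, 136 with age as a covariate, and 0 to 1090 with an array left out (0 without either WT array, 1090 without IRF8 knockout replicate 1). The double knockout against WT had 89, with 13 with no filter, 45 with median centring, 27 with no variance trend, 476 with only the genotypes compared, 0 with sex as a block, 229 when age was a covariate, and 0 to 484 with an array left out (0 without either WT or either double knockout array, 484 without IRF8 knockout replicate 2). Between the knockouts there were 0, with 2538 at an unadjusted p under 0.05 in limma, 2 with age and 0 to 200 with an array left out (200 without IRF8 knockout replicate 1). Both knockouts together had 179, with 70 with no filter, 116 with the 60th percentile, 109 with median centring, 65 with no variance trend, 8 with sex, 355 with age, and 0 to 1020 with an array left out (1020 without IRF8 knockout replicate 1). The cause of these shifts was not tested.

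With the replicate number as a block, the counts were 209, 216, 1 and 391 in the same order. Same-numbered arrays deviated together at r = 0.04, 0.19 and 0.21 for the 3 pairs of genotypes, so the numbers were not taken to pair the samples. Under the block Plagl1 (1426208_x_at) passed in the IRF8 knockout (limma adjusted p = 0.0249) and in both knockouts together (0.0173 as limma adjusted p), and Grb14 in the double knockout (limma adjusted p = 0.0268) and both together (0.0423 as limma adjusted p).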
